A study of Rattus norvegicus with 42 samples.

Results

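In wild-type GH4C1 cells, 45 of 13774 genes stood high at 10 h after fresh medium and low from 18 h to 30 h. Members were chosen on CPM, the count of a gene per 1 M counts of its library (M, mega). The CPM were taken without ENSRNOG00000043866 and ENSRNOG00000030478, 2 rat genes that were very abundant in the knockout and not in wild type. A gene was taken when its mean at 10 h was at least 5 CPM and at least 1.7 times its mean at each of 18, 22, 26 and 30 h. The choice used 15 wild-type libraries, so the wild-type levels at those times are a description and carry no test. The knockout libraries and the wild-type libraries of 14 h and 34 h had no part in it, and the tests compared those. Tests with wild-type levels came from a fit of all 42 libraries. The 15 that chose the members therefore entered the estimate of the spread in those tests.

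GH4C1 is a long-established line from the rat pituitary, of the somatolactotroph type. Such cells make growth hormone and prolactin, and pituitary lines hold a circadian clock that a change of medium can set in step across a culture. Neat1 is a long non-coding RNA that builds paraspeckles, nuclear bodies which hold back certain RNAs and RNA-binding proteins. The study asked how the loss of Neat1 affects rhythmic expression.

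Untreated cells of wild-type genotype (WT) were compared with cells of genotype Neat1 -/- made with CRISPR-Cas9 (KO). Both were grown in Ham F10 medium with horse and fetal calf serum, and total RNA was sequenced at 10, 14, 18, 22, 26, 30 and 34 h (T10 to T34), with 3 replicates at each of the 7 times in each genotype. That makes 42 libraries in 14 groups. Whether KO was 1 clone or a pool, and whether replicates were separate cultures, is not given in the sources used here. The p-values therefore measure the spread between these libraries, which may be technical. The tables of WT and KO counts are separate, and genotype and any difference in culture or library preparation cannot be told apart.

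Library totals spanned 34.5 to 68.8 M counts across WT, and across KO 45.9 to 60.5 M. The 2 genes left out of the CPM took 0.0308 to 0.335% of the counts in WT and 17.6 to 21.2% in KO. The identifiers in the tables were paired with 0 symbols here, so neither Neat1, pituitary markers nor the pathways of the members were analysed here, and the genotype labels are used as given. Members are called by rank, where member 1 has the largest ratio of its WT T10 mean to the highest of its 4 later means (T18 to T30) and member 45 the smallest. A pair of them is named by identifier. Replicate 1 of WT T34 lay outside the range of the other 20 WT libraries for 14 of the 45 members. This was not counted over all genes, so it is not read as particular to the members. Replicate 1 of KO T30 was above both other replicates for 25 of the 45 members and for 36.2% of the 13774 genes. Counts of called members that use WT T34, and the values there of the members named, are given with and without its replicate 1.

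In WT the ratio of T10 to the highest later mean ran from 1.71 to 9.998, with a median of 1.99. It was at least 2 in 22 members and at least 3 in 6. The 3 members nearest above the threshold had ratios of 1.71, 1.72 and 1.73, and the 3 genes nearest below it had 1.699, 1.695 and 1.688, so the edge of the set has no gap. The WT T10 means of the members lay between 5.11 and 1087 CPM with a median of 23.95. These are shares of a bulk library, not levels per length of transcript, and fewer cells expressing a gene and less of its RNA per cell cannot be told apart.

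Most members stood at 14 h, a time that the choice did not use, between their levels at T10 and at T18 to T30. Those levels were chosen to be high and low, so a level between them is favoured by the choice. The counts that follow carry no test and no share of all genes. The WT T14 mean was below the T10 mean in 42 of 45 members and above every mean of T18 to T30 in 43. At the median, the WT T14 level was 64.7% of T10, the T30 level 35.5% and the T34 level 41.5%. The WT mean was lower at each step from T10 to T26 in 25 members.

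**Figure D1:**
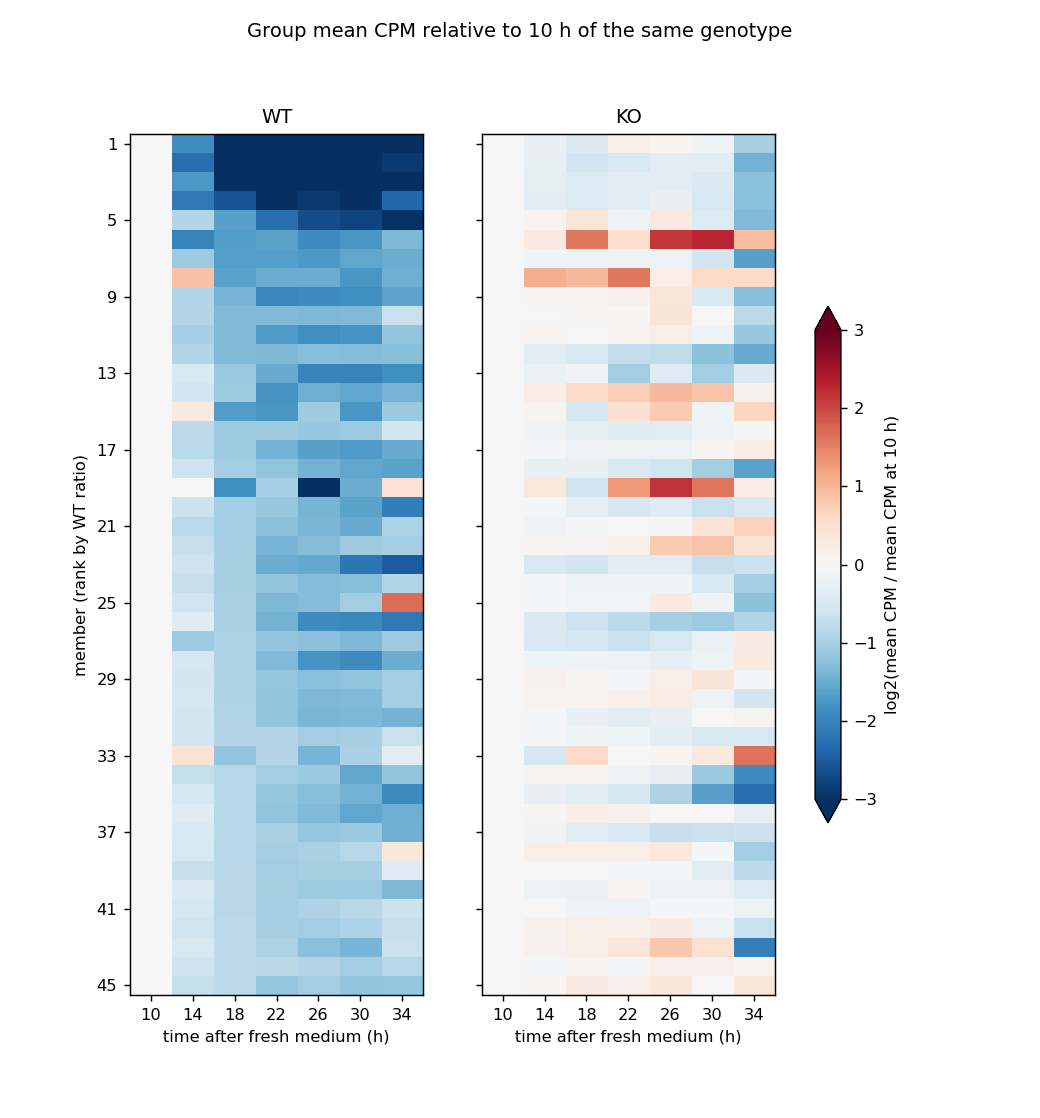
Mean CPM of each member (rows, by rank) at each time (columns, hours after fresh medium) relative to 10 h of the same genotype, on a log2 scale whose colours saturate at 3 in either direction. WT rows turn blue by 18 h, and members 1 to 4 are among the darkest, while most KO rows stay pale until 30 h and turn blue at 34 h in 25 members that passed the test.

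Members 1 to 4 had the steepest WT course. Member 3 measured 225, 228 and 216 CPM in the WT T10 libraries, 64.8, 66.8 and 70.6 at T14, 28.8, 26.3 and 24.1 at T18 and 15.3, 16.6 and 16.1 at T30. It stood at 26.2, 21.5 and 19.7 CPM at WT T34. No WT T10 library of member 3 overlapped any later library, and most of the difference lay between T10 and T18. Member 1 had 22.3, 19.3 and 18.5 CPM at WT T10 and 1.33, 1.07 and 1.19 at T30.

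Other members came down slowly. ENSRNOG00000004222 (member 26) measured 727, 704 and 744 CPM at WT T10, 567, 554 and 559 at T14, 364, 355 and 397 at T18, and 172, 197 and 196 at T30. Its WT level was lower at each sampling up to T26, and each of these groups lay apart from the one before. Member 37 had 1071, 1034 and 1157 CPM at WT T10 and 483, 526 and 498 at T30.

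In 40 of the 45 members the 3 WT T10 libraries lay above all 12 libraries of T18 to T30, as they did in 8.81% of all genes. That count follows from the choice. In the other 5 (members 6, 8, 15, 19 and 33) the libraries overlapped. The coefficient of variation between the WT T10 libraries was 53.7 to 137% in these 5 and 1.27 to 19.8% in the 40. Member 6 had 173, 215 and 2432 CPM at WT T10, so that 1 library put it in the set. Member 8 had 22.5, 3.65 and 3.23 CPM at WT T10, and 2.94, 23.3 and 27.6 at T14. Single libraries of these 5 members were also high in KO: member 15 had 42.5 CPM in 1 KO T10 library and 9.17 and 7.35 in the others.

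**Figure D2:**
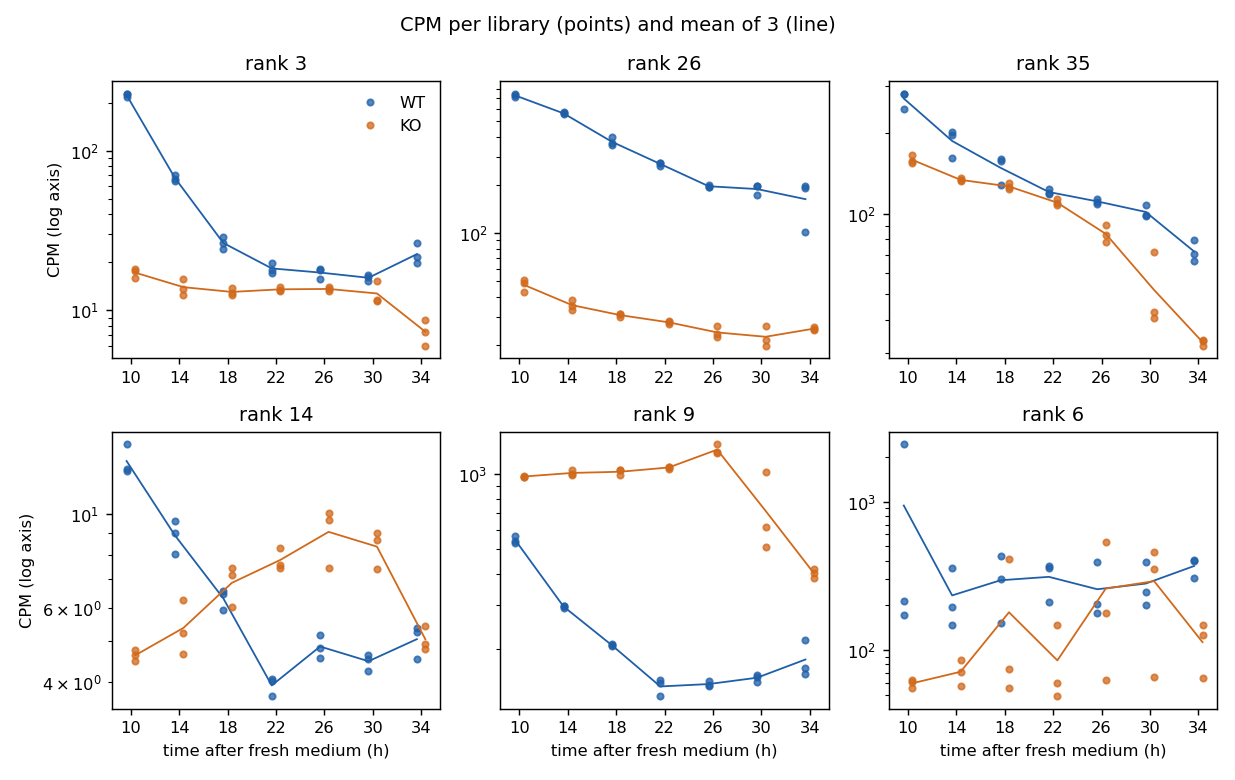
CPM of 6 members on a log axis against hours after fresh medium, with WT in blue and KO in orange, each point 1 library and each line the mean of 3. Members 3 and 26 lie far lower in KO at 10 h, member 35 declines in both genotypes, member 14 moves in opposite directions between 10 h and 26 h, member 9 is higher in KO at all 7 times, and the WT T10 mean of member 6 rests on 1 library of 2432 CPM.

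The KO course is described beside the WT course. The WT ratios were chosen to be high and the KO ratios were not, so a lower ratio in KO is favoured by the choice. The same rule applied to the KO table found 7 genes (0.0508% of 13774, against 0.327% in WT), and 0 of the 45 members were among them. The KO ratio of T10 to the highest later mean had a median of 0.955 over the members and a maximum of 1.55. Over the 10749 genes with at least 5 CPM at WT T10, the KO ratio had a median of 0.930 and an upper quartile of 0.983. The KO T10 mean was above every later mean in 20 members, but in 0 of them by the 1.7 times of the rule.

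At 10 h, where WT was chosen to be high, the KO mean was below the WT mean in 29 members and above it in 16. The median ratio of KO to WT at T10 was 0.473, and 9 members had less than 10% of their WT level. Averaged over T18 to T30 the KO mean was above the WT mean in 26 of 45, with a median ratio of 1.19. In 3 members every KO group mean was below 1 CPM. These values describe the choice as well as the genotypes, since WT T10 set it.

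KO T10 was then tested against the mean of KO T18, T22, T26 and T30 with edgeR's quasi-likelihood test, in a fit of the 21 KO libraries alone. A gene is called when its Benjamini-Hochberg adjusted p, taken over all 13776 genes, is under 0.05. Log2 differences have the first named group above 0 when it is higher, and 1 is a doubling. Of the 45 members, 11 were called higher at KO T10 and 1 lower, which is 24.4% and 2.22% of the members. Over all genes 8.38% were called higher and 8.03% lower, 16.4% in all. The median log2 difference was 0.10 over the members and 0.00 over all genes. The largest member value was 0.89, while the WT values of the same contrast, which chose the members, were 0.88 to 3.87.

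ENSRNOG00000004222 had the largest rise at KO T10. It measured 42.8, 48.9 and 51.0 CPM at KO T10, 35.3, 33.0 and 38.1 at T14, 31.3, 29.8 and 31.0 at T18, and 22.3, 23.3 and 26.3 at T26. The KO T10 libraries lay above all 12 later ones, and the log2 difference was 0.89 (SE 0.07, edgeR adjusted p = 4.4e-08). Its order of times in KO up to T26 was that of WT, at a level below 10% of WT at T10.

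Members 35, 12, 37 and 18 were also called. Member 35 had 166, 157 and 154 CPM at KO T10 and 78.5, 90.3 and 82.9 at T26, a log2 difference from the later times of 0.86 (SE 0.10, edgeR adjusted p = 6.79e-06). Member 12 had 325, 317 and 296 CPM at KO T10 and 173, 203 and 175 at T26, a difference of 0.82 (SE 0.10). The KO T10 libraries of both lay apart from the T26 libraries. Members 37 and 18 rose at T10 by 0.55 (SE 0.03) and 0.59 (SE 0.09).

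In members 1 to 4, the steepest in WT, the KO differences were small beside those of WT, which were 2.91 to 3.87 and chose the members. They were not small among the members, whose KO differences had a median of 0.10 and an upper quartile of 0.37. Member 1 was the exception, at the median. Member 3 measured 17.5, 15.9 and 18.2 CPM at KO T10 and 13.1, 13.97 and 13.7 at T26, against 216 to 228 CPM at WT T10. Its KO difference from the later times was 0.40 (SE 0.09, edgeR adjusted p = 0.00629), and members 2 and 4 had 0.44 and 0.37, also called. Member 3 lost its call without KO replicate 2 (0.44, edgeR adjusted p = 0.0504) and without KO replicate 3 (0.34, edgeR adjusted p = 0.137). Member 1 was at 1.14, 0.812 and 0.840 CPM at KO T10, with a difference of 0.10 (SE 0.27, edgeR adjusted p = 0.841) that did not pass. Its KO group means lay between 0.465 and 1.05 CPM over the 7 times.

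ENSRNOG00000007320 (member 14) was called in the opposite direction. In WT it had 14.6, 12.8 and 12.6 CPM at T10 and 4.07, 4.02 and 3.71 at T22. In KO it had 4.497, 4.76 and 4.63 CPM at T10, 7.15, 6.02 and 7.42 at T18, and 9.67, 7.46 and 10.05 at T26, before 4.93, 4.80 and 5.43 at T34. The KO T10 libraries lay below all 12 of T18 to T30, a log2 difference of -0.77 (SE 0.11, edgeR adjusted p = 0.000108), so that KO was low where WT was high.

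The KO T10 libraries lay above all 12 later ones in 9 of 45 members (2.85% of all genes) and below all of them in 1 (4.12%). All 3 KO T26 libraries lay below all 3 of KO T10 in 14 members (16.7% of all genes). Without replicate 3 of all KO times, 5 members were called higher instead of 11, and the share of all genes went to 1.82%. Without replicate 1 of KO T30 alone, 15 members were called higher and 12.4% of all genes, so the counts moved with those of all genes. Without the KO T30 group the counts were 11 higher and 1 lower (5.39% and 5.44% of all genes), and 10 of the 11 kept their call. In a test of any change over the 7 KO times, 31 of 45 members passed (68.9%), beside 61.7% of all genes.

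**Figure D3:**
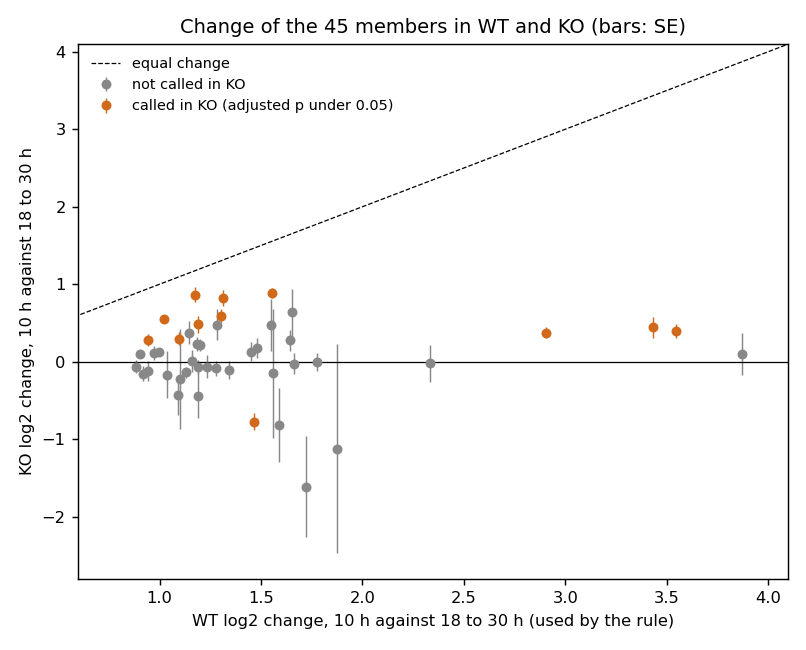
Log2 difference of 10 h from the mean of 18 to 30 h for each member in WT (x axis, values that chose the members) and KO (y axis), with bars of 1 SE for KO, orange where called in KO, and a dashed line of equal change. All 45 points lie below the line, 11 called members lie above 0 and 1, member 14, below it.

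Between KO T10 and KO T14, 0 of the 45 members were called with edgeR (0.145% of all genes, with 0.0944% higher at T10 and 0.0508% lower). At an unadjusted edgeR p under 0.05 there were 7 members, and 1301 of all 13776 genes. DESeq2 called 2 members. Its share of all genes is not given here, so the 2 are not read as a result about the members. WT T10 and T14, in which 42 members had the higher mean at T10, were not tested because T10 had chosen them.

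Most members that changed between 10 h and 34 h of KO fell. Of the 45, 25 were called lower at KO T34 than at KO T10 and 1 was called higher, or 55.6% and 2.22%, against 26.8% and 25.5% of all genes and 52.3% in either direction. The median log2 difference was -0.62 over the members and 0.00 over all genes. In 25 members all 3 KO T34 libraries were below all 3 of T10 (25.4% of all genes), and in 7 they were all above (34.6%).

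Member 35 had the largest fall. It went from 154 to 166 CPM at KO T10 to 33.4, 33.8 and 32.1 at T34, a log2 difference of -2.31 (SE 0.14, edgeR adjusted p = 4.46e-10). At WT T34 it stood at 79.5, 70.6 and 66.3 CPM. Member 12 fell by 1.57 (SE 0.14) on the log2 scale, to 108, 113 and 106 CPM.

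Some members fell at 34 h with no called difference of 10 h from the times between, 2 comparisons that share the KO T10 libraries. Member 9 had 1040.3, 1004 and 997 CPM at KO T14, 1224, 1321 and 1225 at T26, 1020, 511 and 613 at T30, and 419, 401 and 385 at T34. Its T34 value was -1.34 (SE 0.15, edgeR adjusted p = 5.62e-07) from T10, while T10 against T18 to T30 gave -0.01 (SE 0.12). Member 38 measured 386, 390.0 and 370.3 CPM at KO T10, 493, 295 and 334 at T30, and 196, 177 and 187 at T34. In both members the KO T30 libraries disagreed, with replicate 1 near the earlier level and the other pair lower. Member 21 was the riser: 6.51, 6.14 and 5.67 CPM at KO T10 became 9.84, 10.3 and 9.42 at T34, a log2 difference of 0.64 (SE 0.12, edgeR adjusted p = 0.000199).

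The summed level describes the set weighted by CPM, not the course of each member. Over 44 members, leaving out member 6, WT libraries summed to 6127 to 6158 CPM at T10, 3987 to 4074 at T14 and 2359 to 2373 at T30. KO libraries summed to 4633 to 4735 CPM at T10 and 4589 to 4975 at T26. At KO T30 replicate 1 was at 4649 CPM, beside 2757 and 3123 in the others, and at T34 the 3 KO libraries held 2301 to 2405. From T10 to T26 the KO libraries spanned 4371 to 4975 CPM, while the WT sum at T26 was 2348 to 2366. Members with high CPM dominate such a sum, and it carries no test. In KO, members 24 and 9 had means of 1267 and 980 CPM at T10, and 1156 and 1257 CPM at T26.

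**Figure D4:**
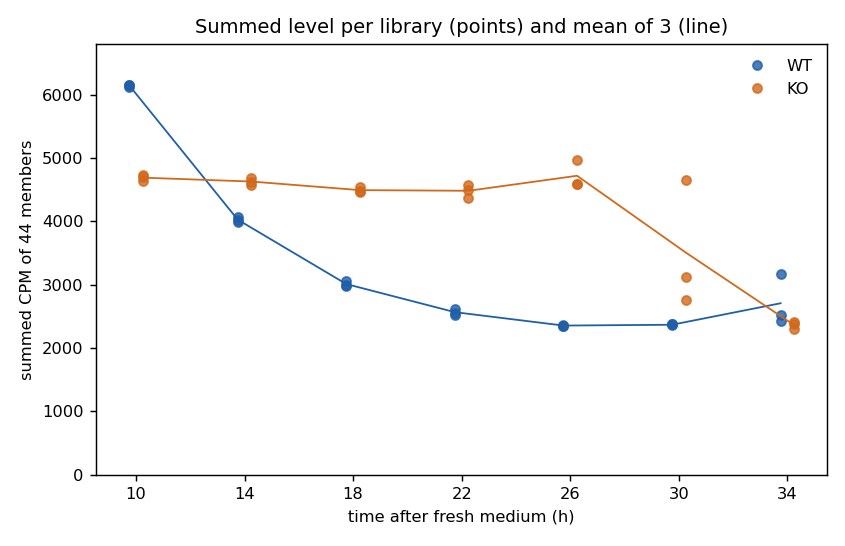
Summed CPM of 44 members (without member 6) per library against hours after fresh medium, with lines through the mean of 3 libraries, WT in blue and KO in orange. WT goes from 6127 to 6158 CPM at 10 h to 2359 to 2373 at 30 h, while KO libraries hold 4371 to 4975 CPM until 26 h, splits at 30 h and reaches 2301 to 2405 at 34 h.

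WT T34 against WT T14 sets against each other the times that the choice did not use. T14 lies next to T10, where the members were chosen to be high. T34 follows T18 to T30, where they were chosen to be low. A fall from T14 to T34 in WT is therefore favoured by the choice. With all libraries, 24 members were called lower at T34 and 2 higher (12.9% and 21.7% of all genes, 34.7% in either direction), in a fit of all 42 libraries with 14 group means. The median log2 difference was -0.51 over the members and 0.03 over all genes, and in 21 members all 3 T34 libraries lay below all 3 of T14 (13% of all genes). ENSRNOG00000004222 had 567, 554 and 559 CPM at WT T14 and 102, 190.3 and 197.0 at T34, a log2 difference of -1.78 (SE 0.14, edgeR adjusted p = 2.43e-10), or -1.51 without replicate 1. Member 3 gave -1.60 (SE 0.11, edgeR adjusted p = 4.69e-12), or -1.68 without it. Member 8 gave -2.36 (SE 0.67), or -2.31 without it, with 2 of its 3 T14 libraries high and 1 low.

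Replicate 1 decided the members called higher. Member 25 had 15.6, 18.2 and 21.7 CPM at WT T14 and 230, 11.6 and 24.7 at T34, a difference of 2.19 with that library and -0.05 without it. Member 38 had 112, 128 and 124 CPM at WT T14 and 438, 81.9 and 122 at T34, 0.77 with and -0.23 without. Without it 27 members were called lower and 0 higher (11.9% and 11.6% of all genes), the median was -0.71, and 22 of the 24 kept their call. A fit of these 6 WT libraries alone called 0 members in either direction, with 22 at an unadjusted p under 0.05. The share of all genes at that unadjusted p is not given here, so the 22 are not read as a result about the members. That fit called 0% of all genes as well, and the values of ENSRNOG00000004222 and member 3 stayed at -1.78 and -1.60.

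KO and WT differed at T14 in most members, in both directions. KO was called higher in 17 and lower in 21 of 45 (37.8% and 46.7%), against 36% and 34.9% of all genes and 70.9% in either direction. The median log2 difference of KO from WT was -0.29 over the members, and the range was -5.58 to 2.95. The median size without regard to sign was 1.43 over the members and 0.50 over all genes.

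Member 23 was lowest in KO relative to WT. It had 9.97, 11.2 and 9.86 CPM at WT T14 and 0.160, 0.154 and 0.322 at KO T14, a log2 difference of -5.58 (SE 0.34, edgeR adjusted p = 5.33e-15). ENSRNOG00000004222 followed the same pattern, with 554 to 567 CPM in WT and 35.3, 33.0 and 38.1 in KO, -3.97 (SE 0.16). Member 25 was highest in KO: 15.6 to 21.7 CPM in WT and 139, 158 and 128 in KO, 2.95 (SE 0.52, edgeR adjusted p = 9.51e-06). Libraries of the 2 genotypes did not overlap for any of these 3 members.

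Members 40 and 13 were also far lower in KO. Member 40 had 342, 373 and 366 CPM at WT T14 and 25.4, 23.8 and 24.5 at KO T14, a log2 difference of -3.87 (SE 0.16, edgeR adjusted p = 1.96e-19), and at T34 it was still lower in KO, with a difference of -3.26 (SE 0.15), or -3.54 without replicate 1 of WT T34. Member 13 had 16.7 CPM or more in all WT T14 libraries and 0.666, 0.717 and 0.446 CPM at KO T14, a difference of -4.83 (SE 0.29, edgeR adjusted p = 3.39e-15). In both, no KO library came near a WT library of the same time.

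Member 24 was higher in KO at T14, with a smaller difference at T34. It had 654, 594 and 602 CPM at WT T14 and 1233, 1269 and 1202 at KO T14, a difference of 1.01 (SE 0.11, edgeR adjusted p = 4.81e-09). At T34 it had 657, 431 and 492 CPM in WT and 622, 591 and 647 in KO, a difference of 0.20 (SE 0.11, edgeR adjusted p = 0.121), and 0.35 without replicate 1 of WT T34, which passed. With that replicate the T34 libraries of the genotypes overlapped, and without it all KO libraries were above the WT ones.

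At T34 KO was called higher in 10 members and lower in 20 (27.6% and 33.1% of all genes, 60.7% in either direction), with a median of -0.39. Without replicate 1 of WT T34 the counts were 14 and 19 (38% and 37.7% of all genes) and the median -0.15. The limit that the choice sets on the comparison at T14 holds at T34 too. Of the 17 members higher in KO at T14, 10 were also higher at T34, and of the 21 lower, 17 were also lower. Without replicate 1 of WT T34 these counts were 14 of 17 and 16 of 21. The share of all genes called at both times was not counted, so these counts are not read as a trait of the members. Member 43 stood at 5.43, 1.71 and 2.52 CPM at WT T34 and 0.196, 0.0738 and 0.163 at KO T34, -4.45 (SE 0.38, edgeR adjusted p = 1.06e-11), or -3.89 without replicate 1. Its KO T34 libraries held only 8, 3 and 8 counts of it, so the size of this difference is uncertain. Member 25 gave -0.50 (SE 0.48) at T34 with all libraries and 1.74 without replicate 1, and member 41 was called higher in KO at both times (2.01 at T14 and 1.92 at T34, SE 0.08 for each, and 2.04 at T34 without replicate 1). Scaled by library totals, in place of TMM, the median of all genes moved to -0.32 at T14 and -0.31 at T34, and that of the members to -0.59 and -0.66.

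The change from T14 to T34 was compared between the genotypes directly, as the KO change minus the WT change, from the same libraries as the comparisons at T14 and T34. It was called in 28 of 45 members, 13 higher and 15 lower (15.9% and 23.2% of all genes, 39.1% in either direction), with a median of 0.31 against -0.05 over all genes. A fit of only the 12 libraries compared called 5 higher and 10 lower, and 5.11% and 5.2% of all genes. A WT fall between these times is favoured by the choice, and with it a value above 0 here. In ENSRNOG00000004222 the value was 1.23 (SE 0.20, edgeR adjusted p = 2.05e-05), or 0.96 without replicate 1 of WT T34, so that the WT difference was the more negative one. In member 12 it was -0.87 (SE 0.18, edgeR adjusted p = 0.000333), or -1.01 without that replicate, with the KO difference the more negative one, from 236 to 267 CPM at T14 to 106 to 113 at T34, while WT went from 122 to 128 CPM to 79.4 to 104. The WT and KO T14 libraries of member 12 lay apart, and at T34 the highest WT library (104 CPM) came close to the lowest KO library (106 CPM) without overlap. ENSRNOG00000007320 gave 0.67 (SE 0.17), or 0.57 without it: its WT level fell between these times by 0.82 (by 0.71 without that replicate), and in KO it stood at 4.66, 5.22 and 6.24 CPM at T14. Without replicate 1 of WT T34, 13 members were called higher and 13 lower (18.1% and 20.8% of all genes), and 24 of the 28 kept their direction and call.

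**Figure D5:**
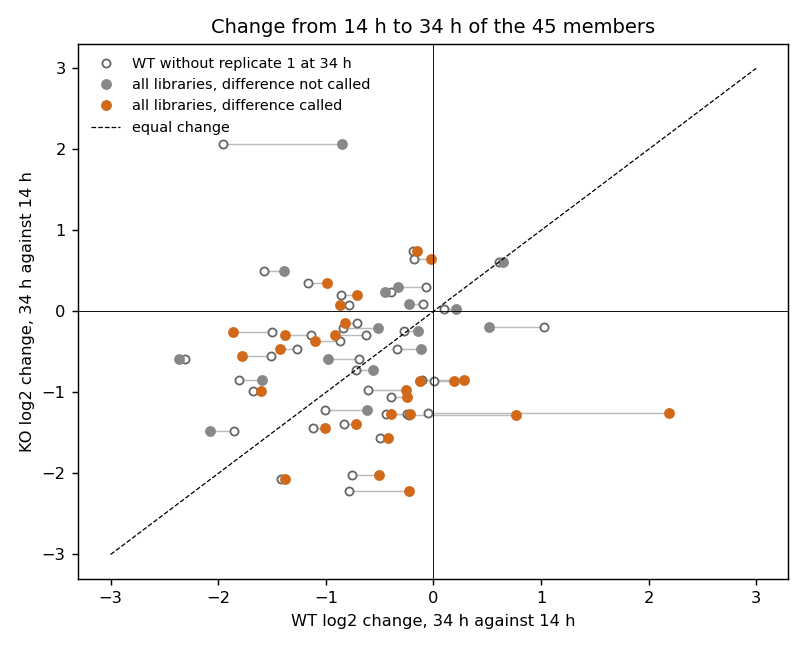
Log2 change from 14 h to 34 h of each member in WT (x axis) and KO (y axis), orange where the difference between the genotypes was called, with an open circle joined to each point for WT without replicate 1 at 34 h and a dashed line of equal change. Members 25 and 38, the points at 2.19 and 0.77 on the x axis, move to -0.05 and -0.23 without that library.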

How the data were processed

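The authors deposited a table of raw counts for WT and another for KO, in whole reads assigned to a gene and not normalized, and both tables list the same 13776 genes by Ensembl identifier. Counting was done with featureCounts, per the submitters' processing notes. The aligner, genome build, annotation release, strand setting and the rule for keeping genes are not given in the sources used here. Libraries were strand-specific, per the labels' protocols. The reads of overlapping genes or near-identical copies may be shared out between them in ways unknown here.

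The members and lists were chosen with earlier results of these data known. Tests ran in R 4.3.3 with edgeR 4.0.16 on the deposited counts (quasi-likelihood F test, TMM scaling, no further filter, Benjamini-Hochberg adjustment over 13776 genes, called under 0.05). KO contrasts came from a fit of the 21 KO libraries, and WT T34 against T14, KO against WT and the difference between the genotypes from a fit of all 42 libraries with 14 group means. The SE is the log2 difference divided by the root of its F. Replicates differed by more than sampling noise: the chi-square per degree of freedom, over genes with at least 50 counts, was at least 5.48 in all 42 pairs. On simulated counts with 200 of 13776 genes changed by 1 on the log2 scale, the test of KO T10 against later times recovered 94% with 6 false calls, KO T34 against T10 92% with 12, WT T34 against T14 85% with 7, KO against WT at T14 80% with 3, and the difference between genotypes 74% with 4. These counts were drawn with the spread that edgeR estimated, as many genes raised as lowered, and no outlying library added. In the data 16.4% to 70.9% of all genes were called in these contrasts. The simulation therefore checks the code and gives no error rate for these data.

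Members without a symbol were to be counted, with at most 2 printed by identifier. Those printed are the member with the largest rise and the 1 member called lower at KO T10, and the other members singled out were chosen after their values were seen. The planned gene lists, markers and promoter motifs needed symbols and were not run. Alternatives were other scalings and filters, DESeq2 1.42.0, fits of only the groups compared, a block for the replicate number, removal of replicates or single libraries, other thresholds of the rule and, added after seeing the data, the contrast without KO T30.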

Additional observations from a re-analysis of the deposited data

Results flagged for a closer look

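The change from T14 to T34 differed between KO and WT in 28 of the 45 members by edgeR's test of the difference itself, which 39.1% of all genes also passed. In a fit of only the 12 libraries compared it was called in 5 higher and 10 lower, beside 5.11% and 5.2% of all genes. A WT fall between these times, and with it a value above 0, is favoured by the choice. In ENSRNOG00000004222 the KO change minus the WT change was 1.23 on the log2 scale and 0.96 without replicate 1 of WT T34, called either way. In member 25 it was -3.45 with all libraries and -1.21 without that replicate, and in member 38 it was -2.04 and -1.04. Both kept their call, and in both the WT T34 libraries included 1 of 3 far above the others (230 beside 11.6 and 24.7 CPM, and 438 beside 81.9 and 122 CPM).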

How the results depend on the processing

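Of 578 values under alternatives, over 52 results, 529 kept their direction and side of the threshold (or stayed within 1.5 times a count or 1 SD of a value), 12 kept the direction but lost the call, 7 reversed and 30 moved. The number of members was 91 at a fold of 1.5, 22 at a fold of 2 and 72 at a minimum of 1 CPM. With 1 replicate number left out of every WT mean it was 46 to 50, and 32 of the 45 met the rule in all 3 such sets. KO T10 against later times called 5 to 11 members higher when 1 KO replicate number was left out and 15 without replicate 1 of KO T30, and the value of member 1 ran from -0.081 to 0.30 with 1 replicate number left out. Of all genes, in either direction, the same contrast called 431 to 2007 with 1 KO replicate number left out. It called 3262 without replicate 1 of KO T30, and 2260 with all KO libraries. KO T10 against T14 called 2 members higher with DESeq2, 1 with filterByExpr, 1 with library totals (also without the 2 abundant genes), 0 to 1 with 1 replicate number left out and 4 without replicate 1 of KO T30. WT T34 against T14 called 0 members higher and 0 lower in the fit of only the groups compared, and 0 to 3 higher with 1 replicate left out. With 1 replicate number left out, member 25 ran from -0.16 to 2.75 there and member 38 from -0.29 to 1.19, and without replicate 1 of WT T34 alone they gave -0.05 and -0.23. KO against WT at T34 in member 25 ran from -0.92 to 1.58, with 1.74 without WT T34 replicate 1. KO against WT at T34 called 8 to 16 members higher with 1 replicate left out. The difference between genotypes called 5 higher in the fit of only the groups compared and 8 to 14 with 1 replicate left out. Shares of all genes are not given beside the other counts of called members here. Changes in those counts are therefore not read as results about the members. The cause of the dependence on processing was not tested.

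The replicate numbers were not taken to pair the samples, since not every pair of same-numbered libraries correlated above 0.1. Same-numbered libraries of different times correlated in their deviations by -0.34 to 0.40 in WT and -0.14 to 0.13 in KO, and 8 of 21 WT and 14 of 21 KO libraries were closest to their own number, where 1 in 3 would be 7. In KO this is a hint from the data of shared replicate effects, not part of the design. With the replicate block, KO T10 against T14 called 1 member higher and WT T34 against T14 also 1, in place of 0 and 2. Shares of all genes with the block are not given here.

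At 0.1 to 1 CPM a library of this depth holds few reads of a gene, and the 3 members below 1 CPM in all KO groups have wide errors.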
